A study of Mus musculus with 6 samples.

Results

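The EGF family of mouse skin wounds was followed here over 10 genes: the ligands Hbegf, Areg, Ereg, Tgfa, Btc and Epgn, the receptors Egfr, Erbb2 and Erbb3, and the intracellular receptor inhibitor Errfi1. Members were all probes that the platform annotation assigns to these symbols and that had a detection p-value under 0.01 on at least 2 of the 6 arrays. Of 17 probes with these symbols 10 passed, and they covered 6 of the 10 genes (Hbegf, Btc, Epgn, Egfr, Erbb2 and Errfi1) among 10266 genes with a passing probe in the series.

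RNA came from full thickness wounds of the back skin, taken on day 8 after injury from C57/BL6 mice, with 1 single-colour bead array per sample. Knockdown wounds (2 arrays, mice of 5 months) carried β-Catenin flox/flox with loxP sites around exons 2 to 6 together with Cre-Esr1, a Cre recombinase activated by tamoxifen, and tamoxifen control wounds (2 arrays, 4 months) carried the same floxed allele with no Cre listed, with tamoxifen given to both. The stabilized wound (1 array, 2 months) carried loxP sites around exon 3 and received Adenovirus-CRE, which yields a β-catenin that resists degradation, and the GFP control wound (1 array, 2 months) had the same allele and received Adenovirus-GFP. In the tamoxifen model age went with genotype, so the 2 cannot be told apart. The labels name neither the promoter that drives Cre-Esr1 nor the cells that the adenovirus reached. The comparisons ask how the family behaves when β-catenin is lowered or raised after injury.

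Ligands of the EGF family are made as membrane proteins and are released by metalloproteases of the ADAM family. They bind EGFR, which pairs with itself or with ERBB2, a receptor without a ligand of its own, and signals through the Ras and PI3 kinase chains. In healing skin these ligands drive the migration and growth of keratinocytes, and ERRFI1, also called MIG6, is an inhibitor that binds the active receptor and is itself induced by it.

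All values below are normalized signals on the log2 scale, and differences and slopes are log2 differences of these. An array detected 15883 to 16681 of 45281 probes, and its mean intensity was 648.7 to 714.8, except on the GFP control array, where it was 544.4. Tamoxifen control replicate 2 correlated across genes more closely with knockdown replicate 1 (r = 0.9811) than with its own replicate (r = 0.9763), so the main results are also given without single arrays. The 4 probes of Ctnnb1, which encodes β-catenin, differed by -0.24 to 0.18 between knockdown and tamoxifen control, and by -0.82 to -0.04 between stabilized and GFP control. The place of these probes relative to the floxed exons was not analysed here, and for a probe outside those exons the level is no check of the labels. The labels call the replicates biological but do not say that they came from separate mice, so the p-values measure the spread between these samples only. Keratinocyte and fibroblast RNA was present on every array by the brightest markers, Krt14, Krt17, Krt16, Dcn, Col1a1 and Lum, each detected on all 6 arrays. Passing probes covered 15 of 17 basal and wound edge keratinocyte genes and 10 of 10 fibroblast genes. In whole wounds fewer cells of a type and less RNA per cell cannot be told apart.

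The 3 measured members with the widest range over the 6 arrays, Hbegf, Errfi1 and Epgn, had their lowest level on a knockdown array and their highest on the stabilized array. Each passing Egfr probe did so too, over a narrower range of 0.54 to 1.08. How many of all genes had these extremes was not counted. No probe passed in the knockdown (0% of 17410 probes at adjusted p under 0.05, limma with Benjamini-Hochberg adjustment, smallest adjusted p = 0.177), with 1854 probes, 10.6%, at an unadjusted p under 0.05. By the brightest probe, 5 of the 6 measured genes were lower in the knockdown, where 46.7% of all genes were, and 5 were higher in the stabilized wound, where 54.3% of all genes were. The one that was neither was Erbb2. Without tamoxifen control replicate 2 the number lower in the knockdown was 3 of 6 (47.3% of all genes). In addition, 3 of the 6 measured genes had both knockdown arrays below both tamoxifen control arrays, where 18.8% of all genes did, and 3 were at least 2-fold higher in the stabilized than in the GFP control wound, where 3.21% of all genes were. The same 3 genes, Hbegf, Errfi1 and Epgn, made up both counts, and 11.4% of all genes had both knockdown arrays below both controls together with a higher value in the stabilized than in the GFP control wound. These 3 also had an unadjusted p under 0.05 in the knockdown, where 4.27% of all genes had one with a lower level, and Epgn was at least 2-fold lower, where 1.14% of all genes were. The median difference over the 6 genes was -0.54 without knockdown replicate 1 and -0.82 without knockdown replicate 2. It was -0.79 without tamoxifen control replicate 1 and -0.46 without tamoxifen control replicate 2. The Epgn difference lay between -1.64 and -0.69 when 1 of these arrays was left out. Over all 10 passing probes, which are not independent because 5 read Egfr, 9 were lower in the knockdown (49.4% of all probes), 5 of these at an unadjusted p under 0.05 (4.88%). Of the same probes 9 were higher in the stabilized wound (55.1%) and 3 at least 2-fold higher (3.8%). Over the 6 genes the median difference was -0.71 in the knockdown (-0.46 without tamoxifen control replicate 2) and 0.95 in the stabilized wound, beside 0.02 and 0.04 over all genes.

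**Figure D1:**
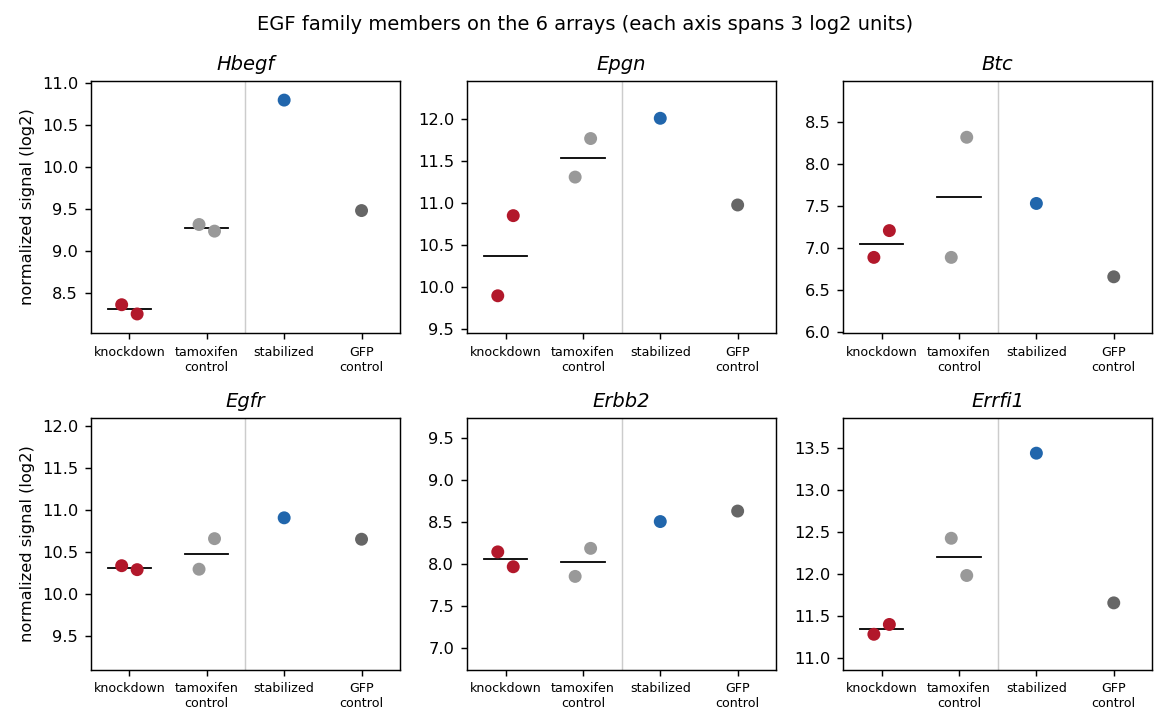
Normalized signal (log2, vertical axis) of the 6 measured EGF family genes, by their brightest probe, on each array (points) of the knockdown, tamoxifen control, stabilized and GFP control groups, with lines at the means of the groups of 2. Hbegf, Epgn and Errfi1 have both knockdown arrays below both tamoxifen controls and the stabilized array at the top, whereas Erbb2 stays within 0.78 log2 units.

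The promoters of Epgn and Errfi1 are shown because these genes had the widest range among the measured genes whose promoters were searched. Of the 7 genes searched, they were also the 2 whose windows held the motif. Windows of Hbegf, Ereg and Erbb3 were not searched. As Hbegf had the widest range of all members, the motif cannot be set against the range here. Each window runs from 250 bases before to 50 bases after a start site in the RefSeq annotation of GRCm38.p6, 5′ to 3′ on the strand of the gene. Capitals mark the core of the motif bound by TCF and LEF, the DNA-binding partners of β-catenin, spelled CTTTGA on either strand. The Epgn window lies at chr5:91027267-91027566 (plus strand), and Errfi1 has start sites at chr4:150853546-150853845 and chr4:150854820-150855119 (both plus strand).
Epgn: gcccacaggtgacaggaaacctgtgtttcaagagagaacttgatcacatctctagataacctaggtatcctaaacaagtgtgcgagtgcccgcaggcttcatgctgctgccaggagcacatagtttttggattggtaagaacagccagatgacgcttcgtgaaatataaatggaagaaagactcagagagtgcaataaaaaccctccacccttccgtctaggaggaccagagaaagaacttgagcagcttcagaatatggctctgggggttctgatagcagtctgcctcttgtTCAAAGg
Errfi1 first start site: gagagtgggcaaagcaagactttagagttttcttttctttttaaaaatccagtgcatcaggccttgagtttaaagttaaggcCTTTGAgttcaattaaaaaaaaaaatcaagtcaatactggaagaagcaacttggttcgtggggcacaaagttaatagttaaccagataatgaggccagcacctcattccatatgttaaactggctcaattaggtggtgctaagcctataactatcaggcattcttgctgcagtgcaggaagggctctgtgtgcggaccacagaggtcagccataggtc
Errfi1 second start site: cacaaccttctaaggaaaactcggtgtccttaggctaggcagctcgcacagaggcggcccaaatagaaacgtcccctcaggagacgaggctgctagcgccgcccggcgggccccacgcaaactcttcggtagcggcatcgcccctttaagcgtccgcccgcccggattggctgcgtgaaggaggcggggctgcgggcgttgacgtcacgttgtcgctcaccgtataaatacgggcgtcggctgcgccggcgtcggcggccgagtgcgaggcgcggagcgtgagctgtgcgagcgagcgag
The core occurred once in the Epgn window, on the opposite strand at position 44 after the start, and once in the first Errfi1 window, at position -168. Of 8 windows searched for 7 of the 10 genes, these 2 (25%) held it, as did 16% of 32841 promoter windows of the same length. The AP-1 motif TGANTCA, bound by Fos and Jun proteins, was in none of the 3 windows and in 7.81% of all windows. A match describes letters only, and the arrays do not bear on binding.

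Hbegf, which encodes heparin-binding EGF-like growth factor, a ligand released at wound edges, was lower in the knockdown on both arrays. Its probe read 8.36 and 8.25 in the knockdown, against 9.32 and 9.24 in the tamoxifen controls. The groups did not overlap, and the 2 arrays of a group were 0.11 apart in the knockdown and 0.08 apart in the tamoxifen controls. The difference was -0.97 ± 0.14 (SE, n = 2 each; 95% interval -1.33 to -0.61), a 1.96-fold lower level, which did not pass over all probes (limma, adjusted p = 0.177). Without any 1 of the 4 tamoxifen arrays it lay between -1.03 and -0.92. Here the array intensity before normalization was 468.3 and 414.6 in the knockdown, against 772.1 and 699.2 in the tamoxifen controls.

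In the stabilized wound Hbegf stood above all other arrays, at 10.80, against 9.48 in the GFP control, a 2.49-fold higher level (1.31 on the log2 scale). With 1 array in each adenovirus group no test was made. The GFP control lay near the tamoxifen controls, so the stabilized array was the one that stood apart. The probe intensity was 2135 on the stabilized array, against 612.9 on the GFP control array. A second Hbegf probe was not detected on any array (detection p from 0.111 to 0.392).

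Epgn encodes epigen, a ligand of EGFR in skin epithelium. It read 9.89 and 10.85 in the knockdown, against 11.31 and 11.77 in the tamoxifen controls. Both knockdown arrays were below both controls, but the 2 knockdown arrays were 0.95 apart. The difference of -1.17 ± 0.35 (SE, n = 2 each), 2.24-fold lower, did not pass (limma, adjusted p = 0.356), and it was -0.69 without knockdown replicate 1 and -1.64 without knockdown replicate 2. The stabilized array read 12.01, against 10.97 on the GFP control array, 2.05-fold higher. That GFP control value was below both tamoxifen controls, so the stabilized array lay 0.24 above the higher of these. The other Epgn probe was not detected on any array.

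Betacellulin, encoded by Btc, binds both EGFR and ERBB4, and its level split the tamoxifen controls. Its probe read 6.89 and 7.21 in the knockdown, against 6.89 and 8.32 in the tamoxifen controls, so the groups overlapped and 1 control array was high. The difference of -0.56 ± 0.47 (SE, n = 2 each; limma, adjusted p = 0.733) became 0.16 without tamoxifen control replicate 2. The hair follicle markers were also highest on that array, with a list median 2.25 above its 6-array mean (6 of 10 genes measured, with Krt25, Krt31, Dsg4 and Lef1 lacking a passing probe), while it was -0.18 on the other control and 0.51 and -1.84 in the knockdown. Their summed level was 2205 to 9761 in the knockdown, 5745 to 41906 in the tamoxifen controls, 3894 in the stabilized wound and 6292 in the GFP control (linear normalized signal), and their part in the Btc level was not tested. In the adenovirus pair Btc read 7.53 in the stabilized wound and 6.66 in the GFP control, 1.83-fold higher.

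The remaining ligands gave no level. Neither probe of Ereg, which encodes epiregulin, was detected on any array (detection p from 0.193 to 0.886). The single probe of Tgfa, transforming growth factor alpha, was not detected either, and its smallest detection p was 0.031, on tamoxifen control replicate 2. No probe of the annotation carried the symbol of Areg, amphiregulin, so it was not analysed here. On mouse chromosome 5 the protein-coding genes Epgn, Ereg, Areg and Btc follow each other directly in the RefSeq annotation. Of these 4 neighbours, Epgn and Btc were detected on all 6 arrays and Ereg on none.

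Egfr, the receptor for all of these ligands, had a difference no larger than its error at the brightest probe in the knockdown. That probe (ILMN_1241496) read 10.34 and 10.29 in the knockdown, against 10.29 and 10.66 in the tamoxifen controls, and the groups overlapped. The difference of -0.16 ± 0.18 (SE, n = 2 each; 95% interval -0.61 to 0.28) did not pass (limma, adjusted p = 0.789) and was 0.02 without tamoxifen control replicate 2. In the stabilized wound this probe read 10.91, against 10.65 in the GFP control.

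The other 4 passing Egfr probes had both knockdown arrays below both tamoxifen controls, as 20.1% of all probes did. These probes read 1 gene and are not independent of each other. Their knockdown differences were -0.44 ± 0.16 for ILMN_2693922, -0.17 ± 0.14 for ILMN_3128725, -0.28 ± 0.14 for ILMN_3052260 and -0.80 ± 0.16 for ILMN_2614432 (SE, limma), with adjusted p from 0.201 to 0.731. The stabilized differences were 0.11, 0.34, 0.05 and 0.92 in the same order.

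The dimmest probe, ILMN_2614432, was not above background on 2 of the 6 arrays. It read 6.02 and 5.75 in the knockdown, against 6.75 and 6.63 in the tamoxifen controls. In the adenovirus pair it read 6.83 in the stabilized wound and was not well above background in the GFP control, where it read 5.91, so the stabilized level was at least 1.6-fold higher. These 2 were knockdown replicate 2 and the GFP control, so the knockdown difference rests on 1 of 2 knockdown arrays above background. With another background correction (normexp, offset 50) the knockdown difference was -0.44, beside -0.42 for ILMN_2693922, and the stabilized difference was 0.52, beside 0.10. For the dimmest probe the knockdown difference was -0.79 with the deposited log2 values, -0.78 with median scaling and -0.56 with the larger offset alone. The stabilized difference was 0.91, 1.20 and 0.65 in the same order. The annotation assigns ILMN_2614432 to the same RefSeq transcript as ILMN_2693922. Where either probe lies in the Egfr transcripts was not checked. A sixth Egfr probe was not detected on any array.

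**Figure D2:**
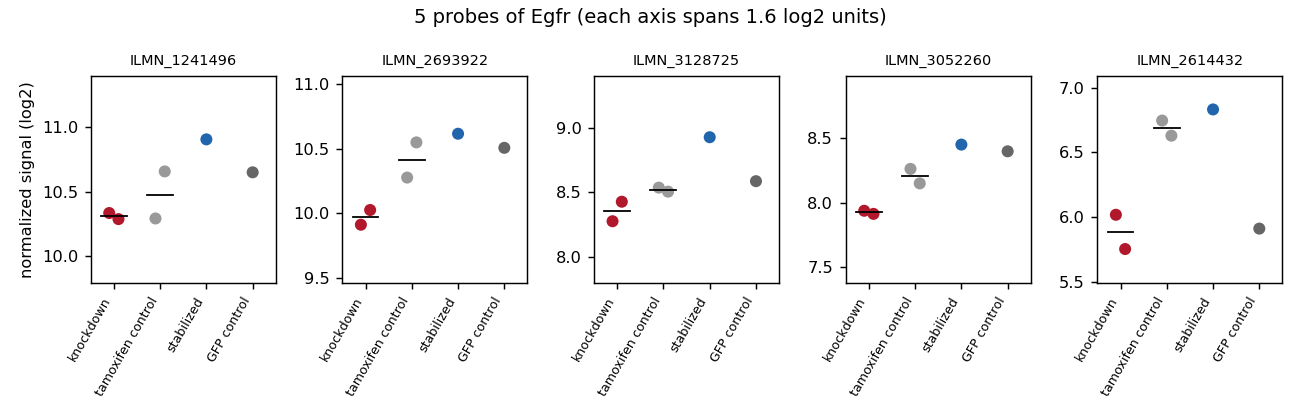
Normalized signal (log2, vertical axis) of the 5 passing Egfr probes on each array (points) of the 4 groups, from the brightest probe on the left to the dimmest on the right, with lines at the means of the groups of 2. The 4 dimmer probes have both knockdown arrays below both tamoxifen controls, and the dimmest, with a difference of -0.80, was not above background on knockdown replicate 2 and the GFP control.

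Erbb2, the partner receptor that binds no ligand, showed no common direction. It read 8.15 and 7.97 in the knockdown, against 7.85 and 8.19 in the tamoxifen controls, and the groups overlapped. The difference was 0.04 ± 0.18 (SE, n = 2 each; limma, adjusted p = 0.963), with a 95% interval of -0.42 to 0.49, and it turned to -0.13 when tamoxifen control replicate 1 was left out and to -0.05 when knockdown replicate 1 was. The stabilized wound read 8.51 and the GFP control 8.63, and both adenovirus arrays were above all 4 tamoxifen arrays. Erbb3, a receptor with little kinase activity of its own, was not detected on any array (detection p from 0.31 to 0.70).

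Errfi1, the receptor inhibitor, had the largest difference among the members in the stabilized wound. It read 11.29 and 11.40 in the knockdown, against 12.43 and 11.99 in the tamoxifen controls. The groups did not overlap, and the 2 controls were further apart than the 2 knockdown arrays. The difference of -0.86 ± 0.20 (SE, n = 2 each; 95% interval -1.36 to -0.37), 1.82-fold lower, did not pass (limma, adjusted p = 0.237), and it lay between -1.08 and -0.64 when each of the 4 arrays was left out in turn. The stabilized array read 13.44, against 11.66 on the GFP control, 3.44-fold higher. As with Epgn, the GFP control lay below both tamoxifen controls, and the stabilized array was 1.01 above the higher of these.

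**Figure D3:**
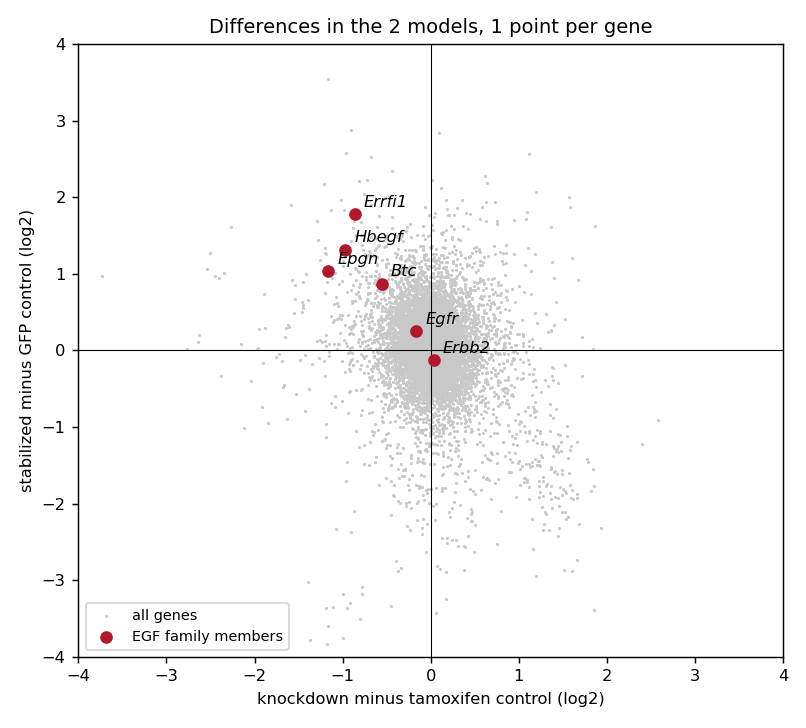
Difference between knockdown and tamoxifen control (horizontal axis, log2) and between stabilized and GFP control (vertical axis, log2) for all genes (grey) and the 6 measured EGF family genes (red), 1 brightest probe per gene, with 9 genes outside the plotted range of 4 log2 units. Hbegf, Errfi1, Epgn and Btc lie in the upper left part, lower in the knockdown and higher in the stabilized wound. Egfr (-0.16 and 0.26) and Erbb2 lie close to 0 on both axes.

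For the trend, β-catenin was coded as -1 (knockdown), 0 (tamoxifen and GFP controls) or 1 (stabilized), and the model system was a term of the fit. It uses the same arrays as the comparisons above, so it is no independent support. No probe passed (0% of 17410 probes, limma, smallest adjusted p = 0.156), with 1799 probes at an unadjusted p under 0.05. Hbegf, at a slope of 1.09 ± 0.13 per step (SE, 6 arrays), shared that smallest adjusted p of 0.156, and 9 of 10266 genes had a smaller unadjusted p. Errfi1 had a slope of 1.17 ± 0.24 (limma, adjusted p = 0.224) and Epgn one of 1.12 ± 0.28 (adjusted p = 0.299). These 3 were the member genes at an unadjusted p under 0.05 with a slope above 0, where 4.76% of all genes were. By slope alone, 50 genes lay above Errfi1, 59 above Epgn and 63 above Hbegf. Btc had a slope of 0.66 ± 0.37, Egfr 0.19 ± 0.14 and Erbb2 -0.07 ± 0.14 (SE, limma, adjusted p from 0.587 to 0.883). When 1 tamoxifen array was left out these slopes ran from 0.28 to 1.10 for Btc, 0.10 to 0.31 for Egfr and -0.17 to 0.02 for Erbb2, and for Btc and Egfr the lowest was without tamoxifen control replicate 2 and the highest without tamoxifen control replicate 1. Of the dimmer Egfr probes, ILMN_2614432 had a slope of 0.84 ± 0.13 (limma, adjusted p = 0.156), and with it 4 of the 10 member probes had an unadjusted p under 0.05 with a slope above 0, as 5.5% of all probes did.

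The scaling changed the values of the adenovirus pair, in which the GFP control array had the lower mean intensity. With quantile normalization the median of all passing probes differed by 0.05 between stabilized and GFP control, and with median scaling by 0.57. Of the probes at least 2-fold apart, 45% were higher in the stabilized wound with quantile normalization, 85.2% with median scaling, 31.3% with the other background correction and 34.3% with a larger offset. Relative to the median of all probes, Hbegf was higher in the stabilized wound by 1.27 with quantile normalization and 1.35 with median scaling, Errfi1 by 1.73 and 1.69, Epgn by 0.98 and 1.05, and Btc by 0.82 and 0.75. The Erbb2 difference turned direction with the scaling, at -0.13 with quantile normalization and 0.47 with median scaling, and so did its slope, which was 0.09 with median scaling. Relative to the median Erbb2 was at -0.17 and -0.10, and the brightest Egfr probe at 0.21 and 0.28. With median scaling the slopes of Hbegf, 1.24, and Epgn, 1.26, passed (limma, adjusted p = 0.0349 and 0.0453), among 179 probes that did, and that of Errfi1, 1.26, did not (adjusted p = 0.0596). There the slope over all probes had a median of 0.13. With median scaling 4 member genes, Btc added, were at least 2-fold higher in the stabilized wound, and so were 14.4% of all genes.

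Keratinocytes are a main source of these ligands, and many of their markers were below the tamoxifen controls in the knockdown too. Of 15 measured basal and wound edge keratinocyte genes (of 17), 13 had both knockdown arrays below both tamoxifen controls, with a median difference of -0.88. Their summed level was 148657 to 161780 in the knockdown, 219040 to 255038 in the tamoxifen controls, 241639 in the stabilized wound and 237221 in the GFP control (linear normalized signal). Krt16 and Krt17, keratins of the activated epidermis, differed by -0.88 ± 0.21 and -0.61 ± 0.14 in the knockdown (SE, limma, adjusted p = 0.243 and 0.235). Krt14, the brightest gene of the list, differed by 0.02 ± 0.14 (SE, limma, adjusted p = 0.972), and its groups overlapped. It read 15.80 to 15.96 over the 6 arrays, and whether so bright a probe was saturated was not checked. A saturated probe could not show a difference.

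With the median of this list subtracted on each array, the knockdown difference was -0.10 for Hbegf, 0.01 for Errfi1, -0.30 for Epgn and 0.31 for Btc. These values depend on the genes chosen for the list, of which Krt14 differed by 0.02 in the knockdown. For Egfr by its brightest probe the same measure was 0.71 and for Erbb2 0.91. In the adenovirus pair the list had a median difference of 0.01, with 9 genes higher and 6 lower in the stabilized wound. There, Hbegf minus the list was 1.47 higher in the stabilized wound than in the GFP control, Errfi1 1.94, Epgn 1.19 and Btc 1.03. The part of the keratinocyte markers in the knockdown differences was not tested.

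**Figure D4:**
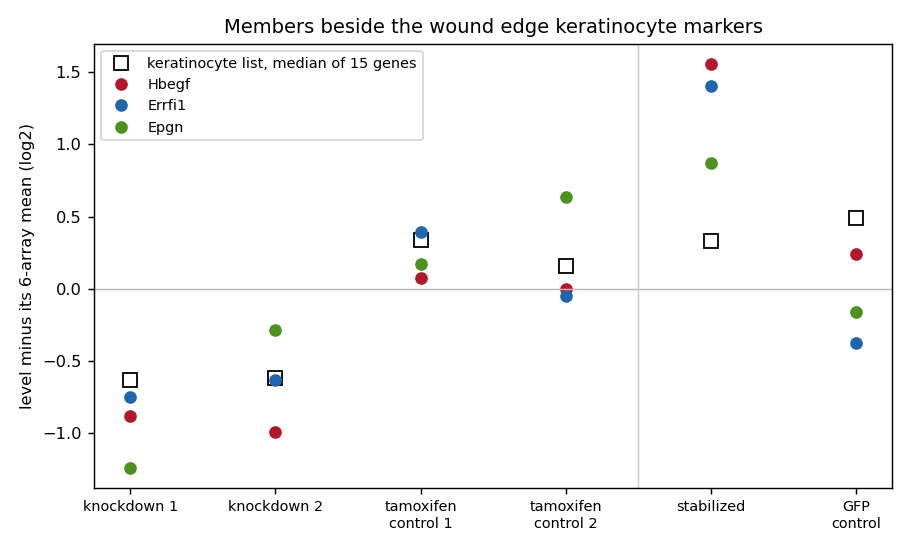
Level minus its own 6-array mean (log2, vertical axis) of Hbegf, Errfi1 and Epgn (filled circles) and the median of the 15 measured basal and wound edge keratinocyte genes (open squares) on each of the 6 arrays (horizontal axis). The keratinocyte median is at -0.63 and -0.62 in the knockdown, 0.34 and 0.16 in the tamoxifen controls, 0.33 in the stabilized wound and 0.49 in the GFP control, and in the stabilized wound the 3 genes lie above it.

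Markers of other cell types also differed between the groups. Passing probes covered 10 of 10 skeletal muscle genes, 5 of 8 T and B cell genes, 6 of 6 mast cell, 7 of 8 macrophage, 8 of 10 differentiated epidermis, 6 of 8 neutrophil and 7 of 7 endothelial genes. In the knockdown the median difference was 1.34 for skeletal muscle, 1.10 for T and B cells, 0.64 for mast cells, 0.03 for macrophages, -0.05 for differentiated epidermis, -0.06 for neutrophils, -0.09 for fibroblasts, -0.17 for endothelium and -1.65 for hair follicle genes. In the stabilized wound it was -1.91 for skeletal muscle, -1.82 for neutrophils, -0.66 for hair follicle, -0.29 for T and B cells, 0.07 for differentiated epidermis, 0.32 for endothelium, 0.43 for fibroblasts, 0.53 for macrophages and 0.71 for mast cells. The neutrophil markers were high on the GFP control array, with a list median 1.23 above its 6-array mean, against -0.54 in the stabilized wound. Their summed level was 61762 to 69428 in the knockdown, 78461 to 84636 in the tamoxifen controls, 79242 in the stabilized wound and 120255 in the GFP control (linear normalized signal). Defining markers without a passing probe were Mmp8 and Ly6g for neutrophils, Cd68 for macrophages, and Flg and Dsg1a for differentiated epidermis. The part of these cell types in the members' levels was not tested.

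The pathway around the receptor was read from lists of 82 other genes, of which 51 had a passing probe. Of these 51, 27 were lower in the knockdown (median difference -0.02) and 32 higher in the stabilized wound (median 0.09), which is 52.9% and 62.7%, beside 46.7% and 54.3% of all genes. In the knockdown 0 passed, and 2 (3.92%) were lower at an unadjusted p under 0.05, beside 4.27% of all genes (limma). In the trend 0 passed, and 5 (9.8%) had a slope above 0 at an unadjusted p under 0.05, beside 4.76% of all genes. In the adenovirus pair 7 (13.7%) were at least 2-fold apart, beside 7.43% of all genes, and 6 of these (11.8%) were lower in the stabilized wound, beside 4.22% of all genes. Genes named below were picked by size or unadjusted p.

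Among ligands outside the 10, Nrg1, which encodes neuregulin and binds ERBB3 and ERBB4, was the 1 measured. Nrg1 read 6.95 and 6.85 in the knockdown, against 7.30 and 7.22 in the tamoxifen controls, and 7.96 in the stabilized wound against 7.68 in the GFP control. Its groups did not overlap, and the knockdown difference was -0.35 ± 0.14 (SE, limma, adjusted p = 0.475), with a slope of 0.33 ± 0.11 (adjusted p = 0.426). Of the sheddases and their partners 8 of 10 were measured and 4 were lower in the knockdown, with a median difference of 0. Adam17, the main sheddase of these ligands, differed by 0.13 ± 0.14 in the knockdown and by -0.05 in the stabilized wound. Adam8, a sheddase of leukocytes, was 2.11-fold lower in the stabilized wound, at 8.34 against 9.42 in the GFP control.

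The chains inside the cell run from receptor adaptors to the MAP and PI3 kinases. Of 11 measured adaptors and early effectors 6 were lower in the knockdown, of 5 Ras and MAP kinase genes 3, and of 5 PI3 kinase genes 2, and in each of these 3 lists 0 genes had an unadjusted p under 0.05, which 10.4% of all genes had, so at these list sizes the counts show little. Map2k2, the kinase also called MEK2, was 2.06-fold lower in the stabilized wound, at 10.95 against 11.99 in the GFP control.

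Feedback inhibitors and immediate targets of the receptor split in the stabilized wound. Phlda1, which encodes a growth factor induced nuclear protein, followed the order of Hbegf, with 9.69 and 9.73 in the knockdown, 10.05 and 10.17 in the tamoxifen controls, 11.46 in the stabilized wound and 10.24 in the GFP control. The difference was -0.40 ± 0.14 in the knockdown (SE, limma, adjusted p = 0.414), 2.32-fold higher in the stabilized wound, and the slope was 0.67 ± 0.20 (adjusted p = 0.373). Etv5, a transcription factor downstream of MAP kinase, differed by -0.30 ± 0.16 in the knockdown and by 0.65 in the stabilized wound, while its relative Etv4, not above background on knockdown replicate 2, differed by -0.76 ± 0.26 and by -0.29. Socs4, which promotes the breakdown of EGFR, differed by -0.21 ± 0.14 and 0.61, and Socs3, an inhibitor of cytokine receptors, by -0.35 ± 0.14 and 0.33.

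Several targets had the opposite direction in the stabilized wound. There the urokinase receptor Plaur was 3.48-fold lower, the stress-induced Ier3 3.08-fold, and the MAP kinase phosphatases Dusp5 and Dusp1 2.19-fold and 2.17-fold. On the GFP control array these 4 genes were at their highest of the 6 arrays, for Plaur at 11.65 against 9.78 to 10.61 elsewhere. In the knockdown they differed by -0.21 to 0.12 from the tamoxifen controls, with SE from 0.20 to 0.30 (limma, adjusted p from 0.763 to 0.941). Neutrophil markers were highest on the GFP control array as well, and their part in these values was not tested.

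**Figure D5:**
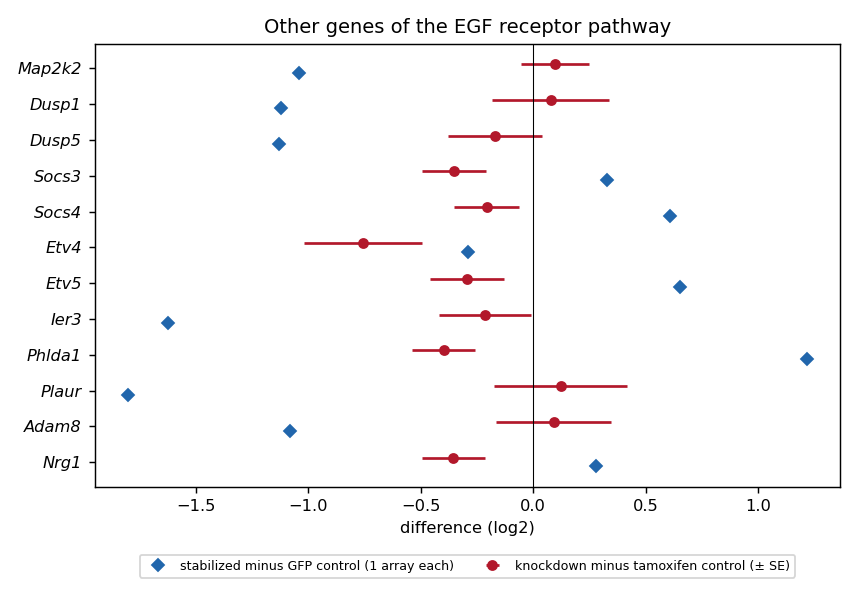
Difference (log2, horizontal axis) of 12 other genes of the EGF receptor pathway, picked by size or unadjusted p, between knockdown and tamoxifen control (red circles, bars ± SE) and between stabilized and GFP control (blue diamonds, 1 array each, no error). Phlda1, Etv5, Socs4, Socs3 and Nrg1 lie below 0 in the knockdown and above 0 in the stabilized wound, whereas Plaur, Ier3, Dusp5, Dusp1, Adam8 and Map2k2 lie below -1 in the stabilized wound.

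For the 3 members with the widest range, the genes with the most similar profile were ranked by the root mean square difference between profiles centred on their 6-array means. For Hbegf (range 2.55) these were Gm4951, Arc, Bmp3, Ch25h and Ifi207, at 0.193 to 0.211 log2 units. Errfi1 (range 2.16) was closest to Ccl7, Ifi207, Dpp4, Creb5 and Ntn4, at 0.203 to 0.25, and Epgn (range 2.11) to Vldlr, Cdcp1, Trex2, Crabp2 and Ccdc68, at 0.274 to 0.328. Hbegf and Errfi1 were each other's closest member, at 0.33, ranking 22 among all genes for Hbegf and 25 for Errfi1, and for Epgn the closest member was Errfi1, ranking 63. Each ranking rests on 6 arrays. Ifi207, near both Hbegf and Errfi1, belongs to a family of similar genes whose probes may share sequence, which was not checked.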

How the data were processed

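The probe table deposited by the authors holds, per the file headers, average bead signals, that is linear intensity values without normalization between arrays, and a detection p-value beside each of them. The authors also deposited log2 values for these 6 arrays, made with R 2.14 and limma per the submitters' processing notes. The columns of that table ranked the probes as the intensities did (Spearman correlation 1) and had medians of 5.12, while their background correction and offset are not given in the sources used here. The files name neither slide nor scan, so no batch was tested.

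Intensities were background-corrected with the detection p-values (neqc, offset 16), log2-transformed and quantile-normalized in limma 3.58.1 under R 4.3.3. Quantile normalization removes a shift common to most genes, and the offset shrinks differences of dim probes. Symbols came from the platform annotation, updated through Entrez numbers to RefSeq of GRCm38.p6 (34807 of 34885 probes with 1 gene). Probes detected at p under 0.01 on at least 2 arrays (17410) were fitted with lmFit and eBayes, with 1 mean per group, and two-sided p-values were adjusted over these probes (Benjamini-Hochberg). Residual spread in the knockdown comparison comes from the 2 tamoxifen groups, with 2 degrees of freedom plus a prior of 3.22, and in the trend from all 6 arrays, with 3 plus 2.73. A gene counted by its brightest passing probe. An "at least" fold takes as its lower level, on the dim array, the smallest signal of any detected probe or the probe's own signal, whichever is higher.

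Members, gene lists and the rule for named genes (all members, pathway genes at an unadjusted p under 0.05 or 2-fold apart in the pair, the brightest markers, and the 5 nearest profiles) were chosen with earlier results of these data known. The number of arrays limits the precision.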

Additional observations from a re-analysis of the deposited data

How the results depend on the processing

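Alternatives were the deposited log2 values, another background correction, median scaling, a larger offset, other filters, 1 probe per gene, the tamoxifen arrays alone and leaving out arrays. The number of probes passing in the knockdown was 0 under each except without tamoxifen control replicate 1, where 2 passed, so that leaving out 1 array gave 0 to 2 (limma, 1036 to 2338 probes at an unadjusted p under 0.05). Those 2 were Krtap7-1, a hair gene, at -6.71, and a probe without a gene name. In the trend 179 probes passed with median scaling, 48 with a slope above 0 and 131 below, and 0 under the others, including leaving out the stabilized or the GFP control array, an alternative added after seeing the data, in which the slope equals the knockdown difference with its sign turned. The members' calls changed under median scaling alone, for the slopes of Hbegf and Epgn.

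Of the member genes 5 of 6 were lower in the knockdown, 8 of 9 without a filter (the 3 added, Ereg, Tgfa and Erbb3, were detected on no array, so their direction adds nothing), and 3 to 6 of 6 when 1 array was left out, with the lowest count without tamoxifen control replicate 2. The differences that turned direction when 1 array was left out spanned -1.27 to 0.16 for Btc, -0.35 to 0.02 for the brightest Egfr probe and -0.13 to 0.20 for Erbb2. The Erbb2 slope was 0.09 with median scaling and -0.17 to 0.02 when 1 array was left out. The causes were not tested. With the replicate number as a block, 0 probes passed (limma, smallest adjusted p = 0.0997, with 2295 at an unadjusted p under 0.05), and Hbegf stayed at -0.97 (adjusted p = 0.112). Deviations of replicates with the same number correlated at r = 0.092 across probes, so the numbers are not taken to pair the samples. Probes near background, such as those of Ereg, Tgfa and Erbb3, cannot show a difference here.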
